A study of Mus musculus with 7 samples.

Results

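Cluster 2 of the host myeloid cells had the highest level of Cd207 among the 4 main host clusters. Cd207 is the gene of langerin, the lectin that defines Langerhans cells (LCs). The members of cluster 2 were the 170 cells that the authors' deposited annotation puts in cluster 2, out of 781 cells in the host library and 18106 cells in the series. Of the 170 cells, 94 had 500 or more detected genes, and marker levels and counts of genes are given for both sets. The cells were CD11b+MHCII+ cells sorted from the epidermis of male C57BL/6 mice (CD45.2) that had been lethally irradiated, 3 weeks after transplantation (BMT) of bone marrow from female CD45.1 C57BL/6 mice. The label of the host library names bone marrow alone, whereas the design of the series also gives the mice CD4 T cells together with Matahari CD8 T cells, which recognise a male antigen, and the paper describes the host LCs as isolated from skin with graft-versus-host disease, its model with T cells. The label and the paper thus differ on the T cells. All host clusters share this irradiation and transplant, and no library of unirradiated epidermis was analysed here. The study pooled the epidermis of several mice for its sequencing; how many stand behind the host library, and their ages, were not found in the sources used here.

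LCs are the mononuclear phagocytes of the epidermis. They sit between keratinocytes, hold on to them through E-cadherin, also carry EpCAM, take up antigen through langerin and other lectins, and carry high amounts of MHC class II. The network is seeded before birth and maintained by local division, and cells that mature detach, express the chemokine receptor CCR7 and leave for the lymph node.

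RNA was measured by 10x Genomics droplet sequencing with a 5' kit, in which each unique molecular identifier (UMI) stands for 1 captured transcript. A level below is the number of UMIs of a gene per 10000 UMIs, summed over the cells of a cluster. There was 1 host library, and the clusters were drawn from these same values. Differences between clusters are therefore descriptions with no test. A gene is called higher or lower at 2-fold or more, and 95% intervals (exact Poisson for levels, exact Clopper-Pearson for shares, exact conditional for ratios) cover counting error only.

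Cluster 2 was the shallowest of the 4 main host clusters, with a wide spread between cells. The number of UMIs per cell ran from 274 through a median of 1763.5 to 39266 in cluster 2, against medians of 3919.5, 4648 and 5007.5 in clusters 1, 3 and 4. The number of detected genes ran from 200 through a median of 721.5 to 7742. Under 500 genes were found in 76 of the 170 cells (44.7%, interval 37.1 to 52.5%), compared with 13.4% of cluster 1, 4.35% of cluster 3 and 12.2% of cluster 4. Mitochondrial transcripts took over 20% of UMIs in 38 cells of cluster 2. Only 58 cells met both limits that the study states for its cells, at least 500 genes and at most 20% mitochondrial, so the deposited host cells were not restricted to these limits. Among cells with 500 or more genes, cluster 2 had a median of 4783.5 UMIs and 1694.5 genes, and depths were closer to those of clusters 1, 3 and 4 (4265, 4740 and 5418 UMIs). The summed levels lean on the deep cells: 17 cells, each with 13541 UMIs or more, held 50% of the 788721 UMIs of cluster 2, and the 76 cells under 500 genes held 4.40%. None of the barcodes of cluster 2 occurred in another library of the series, and 7 of the other host barcodes did.

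**Figure D1:**
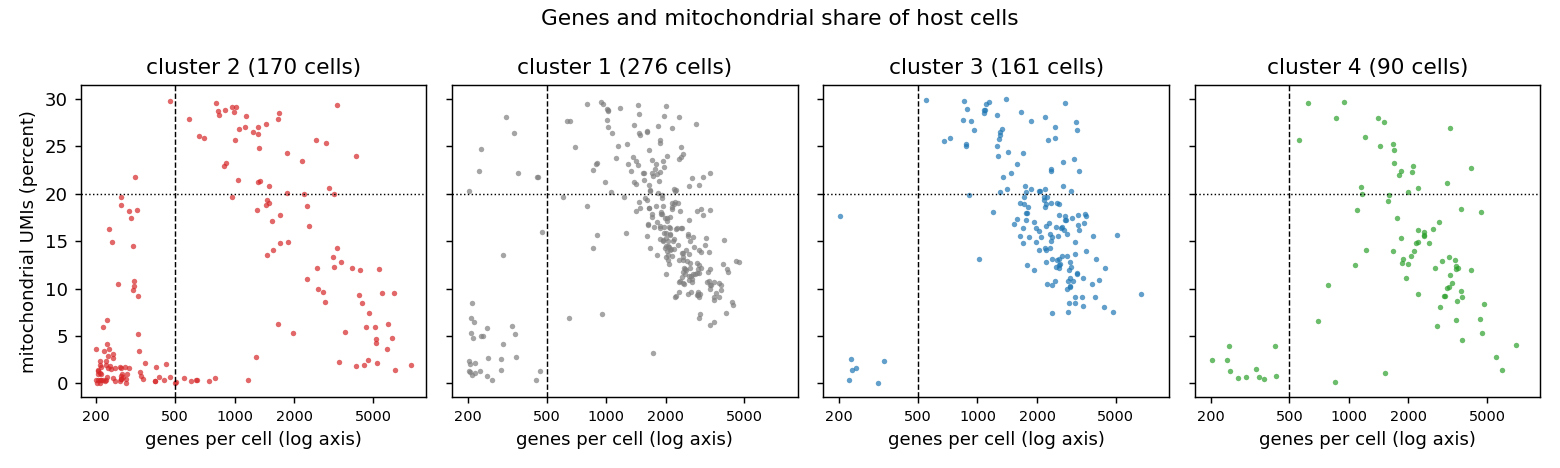
Detected genes (x axis, logarithmic) and percent of UMIs from mitochondrially encoded genes (y axis) for every cell of host clusters 2, 1, 3 and 4. The dashed line marks 500 genes and the dotted line 20%. Cluster 2 splits into 76 cells left of the dashed line, most of them low in mitochondrial transcripts, and 94 cells to its right.

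The 4 markers of LC identity were all at their highest in cluster 2. Cd207 had 1593 UMIs in cluster 2, a level of 20.2 (interval 19.2 to 21.2), against 1.72 in cluster 1, 2.75 in cluster 3 and 4.69 in cluster 4. This is 11.8 times the level of cluster 1, 7.35 times that of cluster 3 and 4.31 times that of cluster 4. Epcam, the gene of the epithelial adhesion molecule EpCAM, reached 10.8 in cluster 2 and stayed between 0.952 and 1.70 in the other 3 clusters. Cd74, the invariant chain that escorts MHC class II, stood at 233 against 15.1, 28.3 and 85.7 in clusters 1, 3 and 4. Mfge8, which codes for a bridging protein for apoptotic cells, was at 43.3, and here cluster 4 was near, at 30.2, which is a ratio of 1.43 (log2 0.52, interval 0.44 to 0.60) and under 2-fold. Leaving out cells under 500 genes changed these levels little: Cd207 was then 20.6, Epcam 10.95, Cd74 235 and Mfge8 44.3 in cluster 2.

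Single cells of cluster 2 varied widely around these sums. Among the 94 cells with 500 or more genes, Cd207 ran from 0 through a median of 9.03 to 164 UMIs per 10000, and it was detected in 79 cells (84.0%, interval 75.1 to 90.8%). The medians were 0, 1.65 and 1.82 in clusters 1, 3 and 4, whose highest cells reached 32.2, 25.2 and 33.7. The clusters therefore overlapped cell by cell, and many cells of cluster 2 lay in the range of the other clusters. Epcam had a median of 3.68 in these cells of cluster 2 and of 0 in each of the other clusters. Cd74 had a median of 100 and ran from 0 to 664, while the medians of clusters 1, 3 and 4 were 14.5, 26.2 and 25.9. All 4 markers were found together in 58 of the 94 cells (61.7%), against 11.3%, 22.7% and 25.3% in clusters 1, 3 and 4. Over all cells these shares were 37.1% in cluster 2 and 9.78%, 21.7% and 22.2% in clusters 1, 3 and 4.

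**Figure D2:**
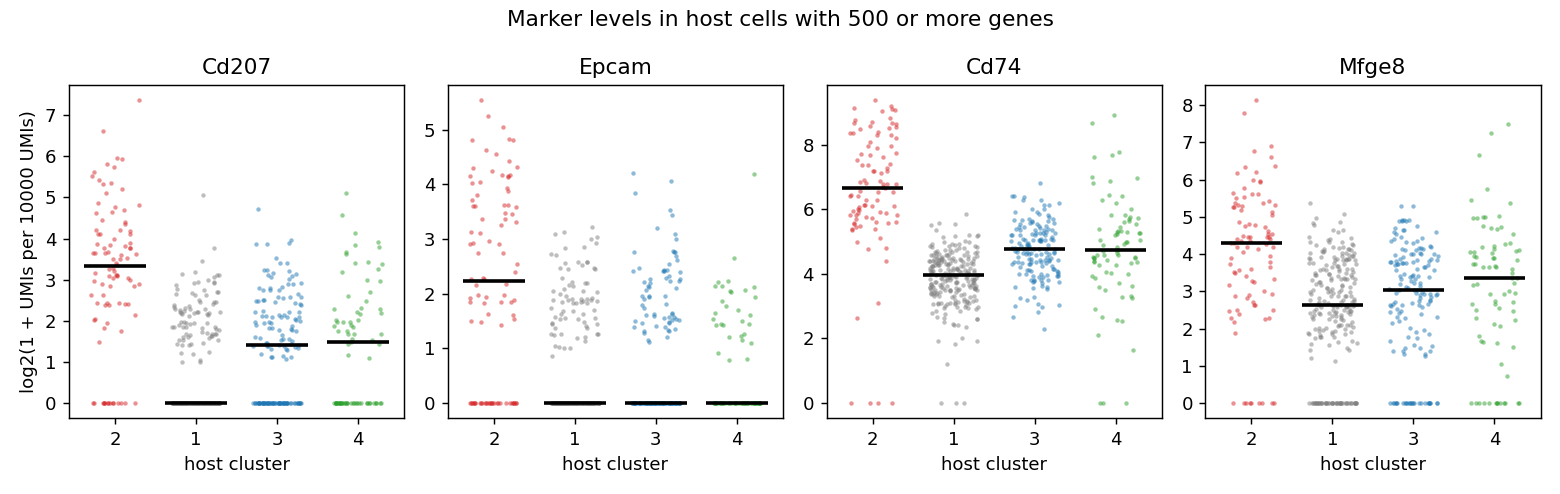
Levels of the 4 markers in each host cell with 500 or more genes, on a log2 scale of 1 plus UMIs per 10000 UMIs, by cluster. Points are cells and black bars are medians. Cells of cluster 2 lie highest for all 4 genes, and their lower part overlaps with clusters 1, 3 and 4.

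Depth alone can raise the share of cells with a UMI, so cells were also drawn down to 1000 UMIs each, which left out 77 of the 170 cells of cluster 2, 33 of cluster 1, 7 of cluster 3 and 11 of cluster 4. At that depth Cd207 was found in 60 of 93 cells of cluster 2 (64.5%, interval 53.9 to 74.2%), in 11.9% of cluster 1, 20.8% of cluster 3 and 25.3% of cluster 4. The interval of cluster 2 lay above those of the other 3, but it covers counting error only. Cd207 was among the values from which the clusters were drawn, so this gap is a description and no test. As a background, Cd207 was found in 1 of 43 cells of keratin-high cluster 5 and in 0 of 22 cells of T cell gene-high cluster 6, drawn down alike. Without thinning the shares were 58.8%, 33.3%, 58.4% and 54.4% in clusters 2, 1, 3 and 4, so that clusters 2, 3 and 4 lay close together. Thinning both equalised depth and left out shallow cells. In cells with 500 or more genes and no thinning the shares were 84.0%, 36.8%, 60.4% and 55.7%, so leaving out shallow cells was enough to set cluster 2 apart. Epcam was also found most often in cluster 2 at 1000 UMIs, in 39.8% of cells, but the other clusters took another order, with 14.9% in cluster 3, 9.88% in cluster 1 and 3.797% in cluster 4.

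Some members of cluster 2 did not carry the markers that give it its name. Over all cells, 20 of 170 (11.8%) had no UMI of the 4 markers. The shares in clusters 1, 3 and 4 were 3.62%, 0% and 1.11%. Among the 94 cells with 500 or more genes, 4 had no UMI of Cd207, Epcam, Cd74 or Mfge8. Of these, 3 held 68, 36 and 12 UMIs of the T cell markers Cd3e, Cd3g, Trdc, Nkg7 and Xcl1, and no UMI of the class II gene H2-Aa. The fourth had 50 UMIs of the keratinocyte markers Krt5, Krt14, Krt10, Krt1, Dsp and Perp among its 1824 UMIs. The deepest cell of the cluster, with 39266 UMIs, held both kinds of transcript: 164 UMIs of the T cell markers, 37 of them from Trdc, the constant region of the delta T cell receptor, beside 103 UMIs of Cd207 and 1278 of Cd74. In all, 5 cells had 3 or more T cell marker UMIs, and they held 8.99% of the UMIs of the cluster. Keratinocyte markers took 1% or more of the UMIs in 21 cells, of which 18 had under 500 genes. Counts are given below with and without these cells.

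Of 23737 genes in the host table, 3576 had a mean level of at least 0.5 over clusters 1 to 4 and were compared. Against cluster 1, 708 genes (19.8%) were higher and 1055 (29.5%) lower in cluster 2. Against cluster 3 the numbers were 662 (18.5%) and 900 (25.2%), and against cluster 4 they were 541 (15.1%) and 515 (14.4%). These shares are the background for the counts of list genes below. Among cells with 500 or more genes, 3592 genes were compared, with 694 (19.3%) higher and 1028 (28.6%) lower against cluster 1, 643 (17.9%) and 849 (23.6%) against cluster 3, and 534 (14.9%) and 490 (13.6%) against cluster 4. Cluster 2 was higher than each of the 3 other clusters for 298 genes (8.33%) and lower than each for 209 (5.84%), and in cells with 500 or more genes for 274 (7.63%) and 182 (5.07%). The median gene was lower in cluster 2 by 0.58 on the log2 scale than in cluster 1, by 0.52 than in cluster 3 and by 0.11 than in cluster 4. Centred on that median, the split turned: 919 genes were higher and 239 lower against cluster 1 (79.4% of called genes higher, in place of 40.2%), 871 and 218 against cluster 3 (80.0% in place of 42.4%), and 613 and 431 against cluster 4 (58.7% in place of 51.2%). Without the 5 cells with T cell markers, and 1 such cell of cluster 3, 687, 638 and 516 genes were higher and 1041, 882 and 498 lower against clusters 1, 3 and 4. Without the keratinocyte marker cells, 3 of which were in cluster 1, the numbers were 705, 652 and 537 higher and 1041, 891 and 507 lower.

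**Figure D3:**
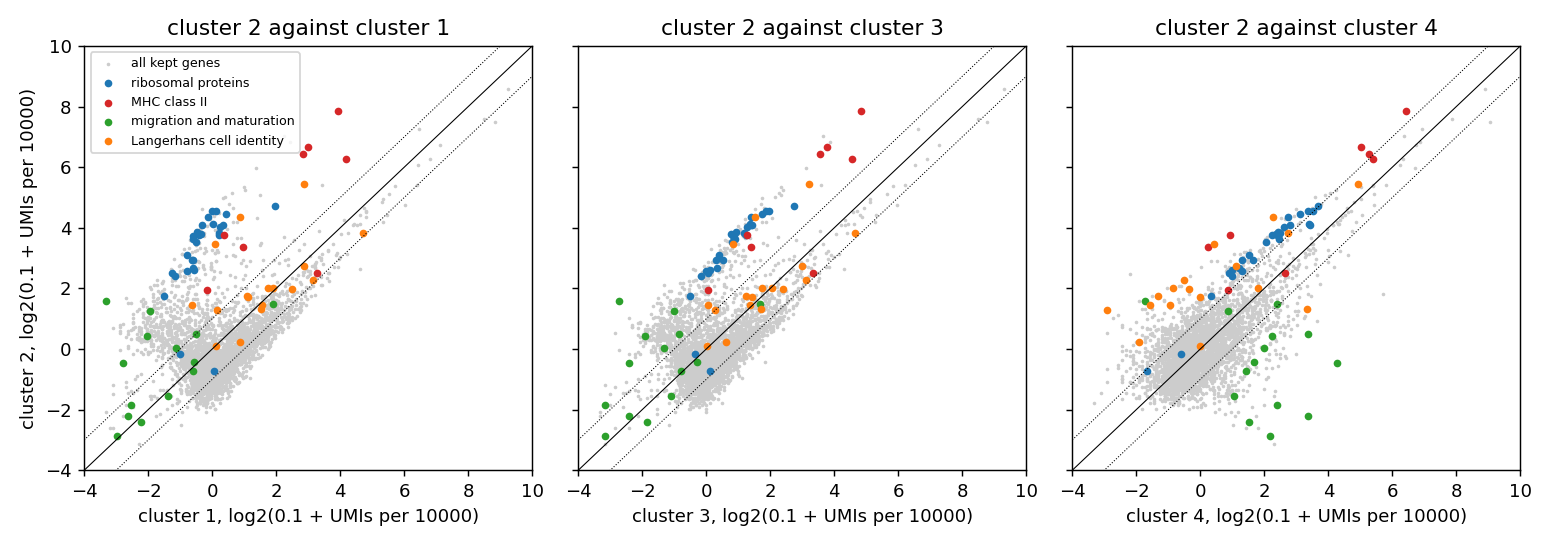
Level of each of the 3576 compared genes in cluster 2 (y axis) against clusters 1, 3 and 4 (x axes), both on a log2 scale of 0.1 plus UMIs per 10000 UMIs. The solid line marks equal levels, the dotted lines 2-fold, and colours mark gene lists. Ribosomal protein and MHC class II genes lie above the upper dotted line in most cases, and genes of migration and maturation lie below the lower one against cluster 4.

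Genes of LC identity were mostly higher in cluster 2 than in cluster 4, and mostly within 2-fold of clusters 1 and 3. Of 17 compared genes of a list of 20, 13 were higher in cluster 2 than in cluster 4 and 1 was lower, with a median log2 ratio of 2.48. Against clusters 1 and 3, 5 were higher and none lower, with medians of 0.14 and 0.10 (all compared genes: -0.58 and -0.52). Without the cells over 8000 UMIs in each cluster, these medians turned to -0.44 and -0.29, so the list gave no fixed direction against clusters 1 and 3. The list holds 3 of the 4 markers. Without them, 11 of 14 compared genes were higher and 1 lower than in cluster 4 (median 2.57), and 2 were higher and none lower than in clusters 1 and 3 (medians -0.07 and 0.02), with the same counts in cells with 500 or more genes. The 5 genes were the same in both: Cd207, Epcam, Mfge8, Cd24a and Rgs18. Cd24a, a surface glycoprotein gene, was at 2.65 in cluster 2 against 0.546, 0.937 and 0.234 in clusters 1, 3 and 4. Rgs18, a regulator of G protein signalling, was at 2.36 against 1.01, 1.10 and 0.0335. Cdh1, the gene of E-cadherin, was at 3.28 in cluster 2, 2.04 in cluster 1 and 2.25 in cluster 3, within 2-fold of one another, and at 0.301 in cluster 4. Csf1r, the receptor on which LCs depend for survival, was at 2.65, 2.86 and 2.49 in clusters 2, 1 and 3 and at 0.418 in cluster 4. Of the epithelial adhesion list, 7 of 11 genes were compared. Epcam was the 1 gene higher against clusters 1 and 3, and Cdh1, Ctnnd1 and Epcam were higher against cluster 4, where F11r was lower. The tight junction gene Cldn1 differed little, at 3.91, 3.27, 4.03 and 3.38 in clusters 2, 1, 3 and 4.

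Lipid mediator genes showed a mixed order. Ptgs1, which codes for cyclooxygenase 1, was at 4.78 in cluster 2, below the 8.86 of cluster 1 and the 8.58 of cluster 3 (log2 ratios of -0.89 and -0.84, short of 2-fold), and 7.93 times the 0.603 of cluster 4. Hpgds, the hematopoietic prostaglandin D synthase, took the same order at 14.1, 26.2, 25.05 and 6.61 in clusters 2, 1, 3 and 4. Alox5ap, the helper protein of 5-lipoxygenase, went the other way, with 5.49 in cluster 2 against 0.388, 0.823 and 0.117. Of the 7 compared genes of 12 on the list, 6 were higher than in cluster 4 (median log2 ratio 2.28), 2 were higher and 1 lower than in cluster 1, and 1 was higher and 1 lower than in cluster 3. Of all compared genes, 15.1% were higher than in cluster 4. The shares were 19.8% higher and 29.5% lower against cluster 1, and 18.5% and 25.2% against cluster 3.

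The genes that present antigen on MHC class II were higher in cluster 2 almost without exception, with the regulator Ciita apart. MHC class II was one of the sort markers, so every cell was gated on it, and the levels below compare cells within that gate. Of 8 compared genes of a list of 10, 7 were higher than in clusters 1 and 3 and 6 higher than in cluster 4, with median log2 ratios of 2.98, 2.26 and 1.32. The list holds Cd74, one of the markers that name the cluster, and Cd74 is counted among the higher genes in each comparison. H2-Ab1, the beta chain of the class II molecule I-A, was at 101 in cluster 2 against 7.80, 13.6 and 32.6 in clusters 1, 3 and 4. H2-Aa, its alpha chain, was at 77.5 against 18.2, 23.2 and 41.8, and against cluster 4 its ratio of 1.85 was under 2-fold. H2-Eb1, the beta chain of I-E, was at 87.2 against 7.06, 11.7 and 38.2. H2-DMa and H2-DMb1, the chains of the chaperone that loads peptide, were at 13.5 and 10.1 in cluster 2 and at no more than 2.54 elsewhere. Ciita, the co-activator that switches on class II genes, was at 5.54 in cluster 2, under the 9.53 and 10.1 of clusters 1 and 3 and near the 6.23 of cluster 4. These ratios were within 2-fold, and Ciita was thus not ordered like the genes it is known to act on. H2-DMb1 and H2-DMb2 are close copies, and the split of reads between them is uncertain.

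The promoters of class II genes share the SXY module, and the Y box in it reads TGATTGG in the direction of the gene. The 150 bases before the gene start of 3 members are shown with the Y box in capitals, because they are the genes that moved together here. They come from RefSeq on GRCm38.p6, all from chromosome 17: H2-Aa at chr17:34287824-34287973 on the minus strand, H2-Eb1 at chr17:34305717-34305866 on the plus strand and H2-DMb1 at chr17:34153041-34153190 on the plus strand.
H2-Aa: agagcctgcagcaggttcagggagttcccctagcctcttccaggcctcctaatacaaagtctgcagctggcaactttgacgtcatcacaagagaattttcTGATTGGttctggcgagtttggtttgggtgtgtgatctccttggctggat
H2-Eb1: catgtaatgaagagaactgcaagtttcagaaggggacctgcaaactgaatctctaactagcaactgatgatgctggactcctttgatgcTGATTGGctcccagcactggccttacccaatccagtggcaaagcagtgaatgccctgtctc
H2-DMb1: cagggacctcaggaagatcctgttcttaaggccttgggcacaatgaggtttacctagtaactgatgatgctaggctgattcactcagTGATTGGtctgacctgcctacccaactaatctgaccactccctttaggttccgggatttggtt
The first base of the motif lies 50, 61 and 63 bases before the gene start. Searched on both strands, TGATTGG was found in the window of 6 of the 7 genes of the class II list in the promoter table, the exception being H2-DMa. Of all 32851 windows of that length in the table, 5.71% held it. H2-DMa was among the genes highest in cluster 2, without these letters in either of its windows. Of the 6 genes with the motif, not all reached the level needed to be compared. A match of letters is a description of the sequence and does not show binding.

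Genes of the endosome and lysosome followed class II against clusters 1 and 3. Of 12 compared genes of 16, 9 were higher than in cluster 1, 6 than in cluster 3 and 1 than in cluster 4, with median log2 ratios of 1.83, 1.45 and 0.29. Over all compared genes, 19.8%, 18.5% and 15.1% were higher. Cst3, the cysteine protease inhibitor cystatin C and the most abundant gene of the list, was at 131 in cluster 2 against 4.64, 12.4 and 81.7. Ctss, the protease cathepsin S that trims the invariant chain, was at 6.63 against 0.388, 0.848 and 3.33. Ifi30, a lysosomal thiol reductase, was at 6.09 against 0.308, 0.658 and 4.95. MHC class I genes were higher than in clusters 1 and 3 (8 and 5 of 10) but not than in cluster 4, where 3 were lower (Tap1, Tap2 and Nlrc5) and the median log2 ratio was -0.62. B2m, the light chain of class I, was at 9.83 in cluster 2, 0.441 and 1.01 in clusters 1 and 3, and 10.3 in cluster 4. Of 4 compared C-type lectins of 12, 3 were higher than in clusters 1 and 3, and 2 higher and 1 lower than in cluster 4. Beside Cd207, Clec4n was higher than in each other cluster (1.51 against 0.361, 0.329 and 0.351). In each other cluster, however, Clec4n was under the minimum mean level set for compared genes. With levels that low elsewhere, it was compared only because it was high in cluster 2. Its calls among the higher lectins were thus built into that filter and are no separate result. Ly75 was highest in cluster 4, at 10.1 against 2.38 in cluster 2.

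Migration genes set cluster 2 apart from cluster 4 in the other direction. Of 14 compared genes of 20, 11 were lower and 1 higher in cluster 2 than in cluster 4, with a median log2 ratio of -2.66. Ccr7, the receptor that leads LCs to the lymph node, had 3 UMIs in cluster 2 and a level of 4.40 in cluster 4. Fscn1, an actin bundling protein of mature dendritic cells, was at 0.114 against 10.2 (log2 ratio -6.48, interval -7.61 to -5.54). Ccl22, a chemokine of migratory cells, was at 0.621 against 19.1, and its 49 UMIs in cluster 2 came from 6 cells. Nr4a3 was at 1.32 against 10.2. Drawn down to 2000 UMIs per cell, which left 80 cells of cluster 2 and 75 of cluster 4, Ccr7 was found in 2.50% (interval 0.304 to 8.74%) and 28%, Ccl22 in 5.0% (1.38 to 12.3%) and 54.7%, and Fscn1 in 1.25% (0.0316 to 6.77%) and 40.0%. At 1000 UMIs none was found in 93 cells of cluster 2, and at 500 UMIs Ccl22 was found in 3 and Fscn1 in 1 of 119 cells, so a few cells with these transcripts were present. Against clusters 1 and 3, 7 of the 14 genes were higher in cluster 2 and none lower, with medians of 1.00 and 0.95, although the levels were small: Cd83 was at 1.26 against 0.141 and 0.165, and Cd40 at 0.926 against 0.353 and 0.304. Ccl5, a chemokine on the same list and its 1 gene higher than in cluster 4, had the largest ratio to cluster 1 among the compared genes (at least 110-fold, with no UMI in cluster 1 and a floor of 3 UMIs), and 1 cell decided it. Of its 229 UMIs, 226 were in 1 cell, which had T cell marker UMIs and none of Cd207.

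Transcription factors and TGF-beta signalling genes were not higher as groups. Of 7 compared factors of a list of 16, 1 was higher against each cluster: Spi1, the gene of PU.1, at 5.06 against 0.934 and 1.44 in clusters 1 and 3, and Runx3, at 8.63 against 2.24 in cluster 4. Runx3, which LCs need for their development, was lower than in cluster 1 (18.3) and cluster 3 (17.7), close to 2-fold. In cells with 500 or more genes its log2 ratios were -1.05 and -0.99, under 2-fold against cluster 3, and centred on the median gene no factor of the list was lower than in clusters 1 and 3. Id2, a factor required for LCs, was at 6.71 against 5.06, 4.35 and 4.40, all within 2-fold. Ahr, the aryl hydrocarbon receptor, was at 1.84 against 3.88, 3.39 and 1.11. Irf8 and Klf6 were lower than in cluster 4, at 1.65 each against 7.93 and 6.56. In the TGF-beta list, none of 7 compared genes of 15 was higher, and 2, 1 and 2 were lower than in clusters 1, 3 and 4. Of all compared genes, 19.8%, 18.5% and 15.1% were higher and 29.5%, 25.2% and 14.4% lower in these comparisons. Tgfbr1, a receptor of the pathway, was at 0.558 against 1.42, 1.11 and 1.86. The median log2 ratios of that list, -0.57, -0.53 and -0.55, were close to those of all compared genes against clusters 1 and 3.

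**Figure D4:**
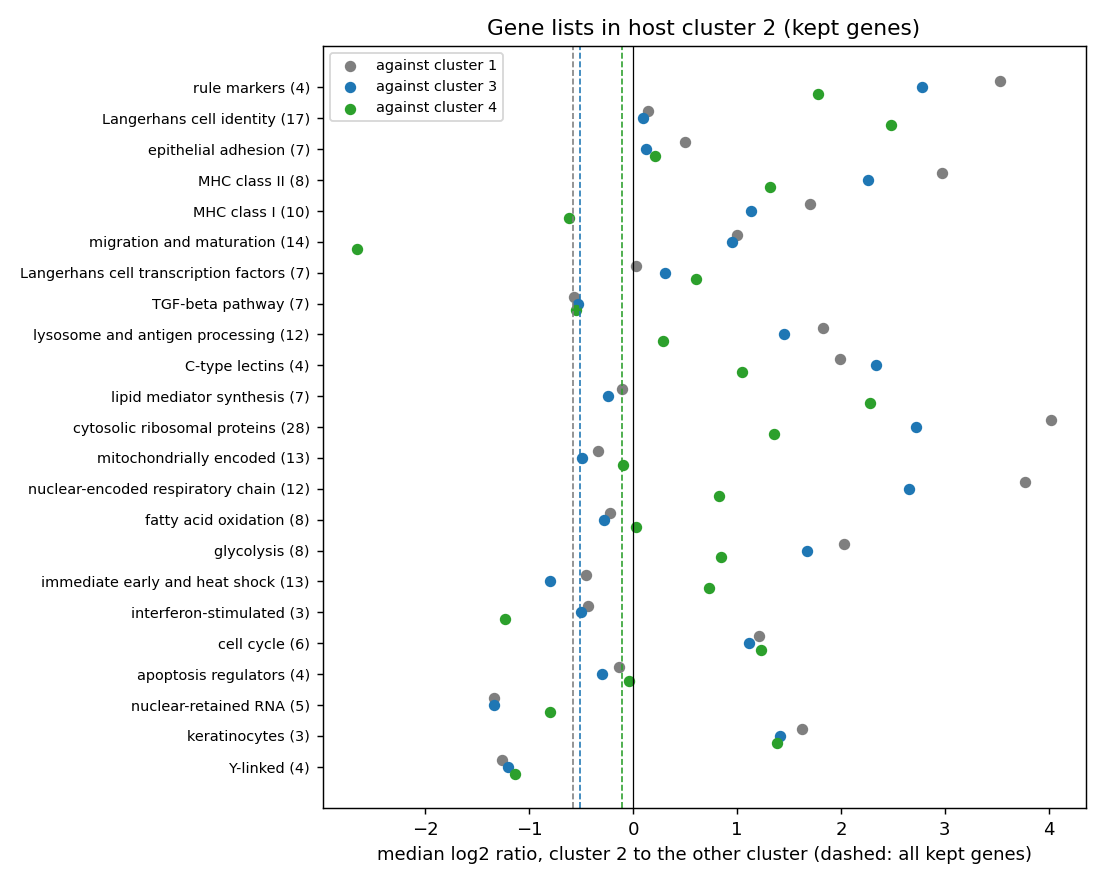
Median log2 ratio of cluster 2 to clusters 1, 3 and 4 (x axis) for the compared genes of each list with at least 3 of them (number in brackets). Dashed lines mark the median of all compared genes. Ribosomal protein and respiratory chain lists lie farthest to the right against cluster 1, and the migration list lies at -2.66 against cluster 4.

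Messenger RNAs for the translation machinery and energy metabolism were the largest block of higher genes. Ribosomal protein transcripts held 8.64% of all UMIs in cluster 2, compared with 0.585% in cluster 1, 1.37% in cluster 3 and 3.53% in cluster 4. Of 28 listed ribosomal protein genes, all compared, 27, 26 and 25 were higher against clusters 1, 3 and 4, with medians of 4.02, 2.73 and 1.35. Rplp0, a stalk protein of the large subunit, was at 23.5 against 0.978, 3.797 and 10.3. Among the 298 genes higher than in each other cluster, 66 were ribosomal protein genes, out of 80 compared. Nuclear genes of the respiratory chain were also higher, 12 of 12 compared against clusters 1 and 3 and 5 of 12 against cluster 4. Cox4i1, a subunit of cytochrome c oxidase, was at 6.00 against 0.432, 0.683 and 3.00. The 13 respiratory genes encoded in the mitochondrion itself did not share this, with none past 2-fold in any comparison and medians of -0.34, -0.49 and -0.10. Glycolysis genes were higher in 7, 6 and 4 of 8, with Gapdh at 7.21 against 0.590, 1.04 and 5.04. Fatty acid oxidation genes were near the other clusters, with 1 of 8 higher against clusters 1 and 3 (Acadl) and 1 of 8 lower in each comparison. Shares over all compared genes were 19.8% and 18.5% higher against clusters 1 and 3, and 29.5%, 25.2% and 14.4% lower against clusters 1, 3 and 4. Cytoplasmic ribosomal transcripts were not highest in the same cells as nuclear RNA: within cluster 2 the ribosomal protein share was 16.1% in cells under 500 genes and 8.47% in cells with 2500 or more, while Malat1 took 0.0894% and 2.05%.

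Cell cycle genes were higher by the count, 4, 3 and 5 of 6 compared genes of 18, but few cells carried them. Tubb5, a tubulin gene, was at 10.1 in cluster 2 against 0.758, 1.65 and 4.39, and it is also expressed outside division. Top2a, a topoisomerase of dividing cells, had 75 UMIs in 20 cells of cluster 2, 4 of which held 50% of them. At 1000 UMIs per cell Top2a was found in 4.30% of cells of cluster 2 and in 2.88%, 3.25% and 2.53% of clusters 1, 3 and 4, with overlapping intervals, and Mki67 in 4.30% against 8.23%, 6.49% and 6.33%. Immediate early and heat shock genes were lower than in cluster 3 for 4 of 13 and higher than in cluster 4 for 5 of 13. Of all compared genes, 25.2% were lower against cluster 3 and 15.1% higher against cluster 4. Centred on the median gene, 1 of the 13 was lower than in cluster 3 and 6 were higher than in cluster 4. Fos was at 3.45 in cluster 2 against 5.77, 6.14 and 0.686. Of the interferon-stimulated list 3 of 18 genes were compared, and 2 of them, Ifi204 and Stat2, were lower than in cluster 4, as were 14.4% of all compared genes. Of 4 compared regulators of apoptosis, Bax was higher than in cluster 1, at 1.97 against 0.714, as were 19.8% of all compared genes.

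Several nuclear RNAs and many predicted or unnamed genes were lower in cluster 2. Malat1, a long RNA kept in the nucleus, was at 180 in cluster 2 against 454, 440 and 531. Of 5 compared nuclear-retained RNAs, 4 were lower than in clusters 1 and 3 and 2 than in cluster 4, among them Neat1 at 2.04 against 6.11, 5.28 and 9.59, and Gas5 alone was higher (3.18 against 1.19, 1.32 and 1.54). Over all compared genes, 29.5%, 25.2% and 14.4% were lower. Centred on the median gene, 1, 0 and 2 of the 5 were lower against clusters 1, 3 and 4, so most of the calls against clusters 1 and 3 depend on the scaling. Among the 209 genes lower than in each other cluster, 59 had Gm or Rik symbols and 12 were olfactory or vomeronasal receptor genes, out of 271 and 41 compared. The protein-coding genes among the 209 were long, with a median span of 71.1 kb, against 35.5 kb for all compared genes and 7.84 kb for the genes higher than in each (GENCODE names on GRCm39, matched for 94.7%, 96.3% and 96.3% of genes). Malat1, Gm and Rik genes and long genes therefore moved with the low levels of cluster 2, and the part of nuclear or unspliced RNA in this was not tested. Many Gm genes overlap other genes, and which of them a read belongs to is uncertain.

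By the size of the smallest of its 3 ratios, the genes that stood highest in cluster 2 were Ccl5, Stmn1, Dbi, Apoe, Scp2, Alox5ap, Ndufa6, Epcam, Tnfaip8l2 and H2-DMa. Dbi, an acyl-CoA binding protein gene, was at 10.6 against 0.608, 1.22 and 1.09, in 103 cells. Scp2, a sterol carrier protein gene, was at 6.42 against 0.872, 0.937 and 0.921, in 79 cells. Stmn1, a microtubule regulator, was at 1.74 against 0.123, 0.139 and 0.151, but 3 cells held 50% of its UMIs. Apoe, a lipid carrier gene, was at 2.92 against 0.300, 0.392 and 0.167 in 59 cells, 5 of which held 50%. In each other cluster, Ccl5, Stmn1, Apoe and Tnfaip8l2 were under the minimum mean level set for compared genes. Genes that low elsewhere were compared only if high in cluster 2, so their large ratios are partly built into that filter. The 10 lowest by the same measure were Gm38235, Gm38120, Gm43411, Gm48585, Gm44321, C430019N01Rik, Gm40309, Gm37472, Specc1l and Gm28268. Each had 28 UMIs or fewer in cluster 2, where its level was under the same minimum. These genes were compared because of their levels in the other clusters, so the filter has a like part in their low ratios. Against single clusters, Tomm7, Ndufa1, Tspo and Uqcr11 followed Ccl5 as the highest ratios to cluster 1, and Psmb5, Uqcrb, Bcl2a1a and Tubb4b followed it against cluster 3. Rgs18, Alox5ap, Hpgd, Col16a1 and Tspan8 led against cluster 4, where Apol7c, Ccr7, Fscn1, Tnip3 and Anxa3 were lowest. Hpgd, which breaks down prostaglandins, was at 1.95 in cluster 2 and 0.0502 in cluster 4. Gm36839, Gm42479, Gm45540, Gm42480 and Gm42546 were lowest against cluster 1, and Gm45540, Gm38235, Gm42479, Anapc1 and Xaf1 against cluster 3.

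Transcripts of other cell types were present at low levels. The 5 T cell markers summed to 3.65 UMIs per 10000 in cluster 2 against 0.282, 0.177 and 0.201 in clusters 1, 3 and 4, and 56.9% of them were in 1 cell. The 6 keratinocyte markers summed to 7.05 against 2.16, 2.05 and 2.01, with a range of 0 to 592 over cells of cluster 2, and the level of Krt14 within it was 21.1 in cells under 500 genes and 1.06 in cells with 2500 or more. Clusters 1, 3 and 4 showed a like order, with Krt14 at 25.6, 11.6 and 10.75 under 500 genes and 0.563, 0.875 and 0.557 with 2500 or more. The macrophage markers, of which Mrc1 is missing from the host table, summed to 3.28 against 0.502, 0.721 and 1.89. C1qa made up most of this, at 2.11. The 40 cells with C1qa were not a group without langerin, since 39 of them had Cd207, at a level of 25.6. In the other 56 cells with 500 or more genes, Cd207 was at 10.4. Depth raises the share of cells with a UMI of either gene, and its part here was not tested. Of the monocyte markers, Ly6c2, Lyz2 and Ccr2 had 5, 13 and 13 UMIs, and Plac8 is not in the host table. The 4 melanocyte markers summed to 0.330, and Col1a1 and Dcn, the fibroblast markers found in the host table out of 3, to 0.101, with Tyrp1 and Mlana at 0. Itgam, the gene of the sort marker CD11b, had 25 UMIs in 18 cells. The wider lists gave no compared gene for epidermal T cells (14 genes), monocytes (12) or mast cells and neutrophils (8). They gave 2 of 12 for macrophages (C1qa and Apoe), 2 of 10 for dermal dendritic cells (Cd24a and Sirpa) and 1 of 10 for melanocytes and fibroblasts (Dct). For keratinocytes 3 of 14 were compared, Krt5, Krt14 and Lgals7. Over all cells these were higher in each comparison, with median log2 ratios of 1.62, 1.41 and 1.39 to clusters 1, 3 and 4. Without the keratinocyte marker cells the medians were 0.64, 0.24 and 0.24. In cells with 500 or more genes, 3, 1 and 2 of 3 compared keratinocyte genes were higher, with medians of 1.66, 0.84 and 1.04.

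The sex of the cells was checked with genes of the Y chromosome, since hosts were male and donors female. Ddx3y, Eif2s3y, Kdm5d and Uty together had 162 UMIs in cluster 2, found in 57 of 170 cells (33.5%), a level of 2.05 against 4.57, 4.71 and 4.0 in clusters 1, 3 and 4. The female transcript Xist had 5 UMIs in 3 cells, and 2 of these had no Y-linked UMI. All 4 genes were lower in cluster 2, with 2, 3 and 3 of them past 2-fold against clusters 1, 3 and 4. Over all compared genes, 29.5%, 25.2% and 14.4% were lower past 2-fold. Centred on the median gene, 1, 1 and 2 of the 4 were past 2-fold. Host clusters 5, 6 and 7 were at 2.05, 1.94 and 4.42, with a Y-linked UMI in 93.0%, 60.9% and 77.8% of their cells. At this depth, cells without a Y-linked UMI cannot be told apart from cells of donor origin.

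Marker levels within cluster 2 moved with the mitochondrial share. The 94 cells with 500 or more genes were divided at 5% and 20% mitochondrial, cut points set after the values were seen. Cd207 was at 28.2 (interval 26.2 to 30.2) in the 21 cells at or under 5%, 19.8 (18.3 to 21.3) in the 37 cells up to 20%, and 8.03 (6.63 to 9.64) in the 36 cells over 20%. Cd74 was at 367, 192 and 85.9 in the same order, H2-Aa at 114, 67.9 and 35.5 and Epcam at 16.7, 9.68 and 3.00. The ribosomal protein share was 10.9%, 7.36% and 5.53%. Depth moved along, with median UMIs of 10992, 6472 and 2787, and its part in the order was not tested. In the cells over 20% mitochondrial, Cd207 in cluster 2 stood above the same class of cluster 1 (1.53), cluster 3 (1.72) and cluster 4 (4.17). The clusters were drawn from these values, so this order within classes describes the clustering and lends it no support. Cluster 4 showed a like order for Cd74, with 256, 41.3 and 35.1, and for H2-Aa, with 104, 24.9 and 23.6 (its lowest class has 6 cells). Mfge8 was at 71.0, 33.4 and 19.0 in cluster 2 and at 101, 10.4 and 13.7 in cluster 4, so in the lowest class cluster 4 was the higher. The same order, with the same limit, was seen among cells of similar gene number from 1000 genes up. From 1000 genes to below 2500 genes, Cd207 was at 17.2 in 37 cells of cluster 2 against 1.47, 2.76 and 3.08, and with 2500 or more genes at 21.6 in 37 cells against 2.07, 2.69 and 4.87. Under 500 genes it was at 12.4 in 76 cells of cluster 2, whereas 11 such cells of cluster 4 had 36.9 and 204 of Cd74, so shallow cells with high LC marker levels were also present in cluster 4.

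**Figure D5:**
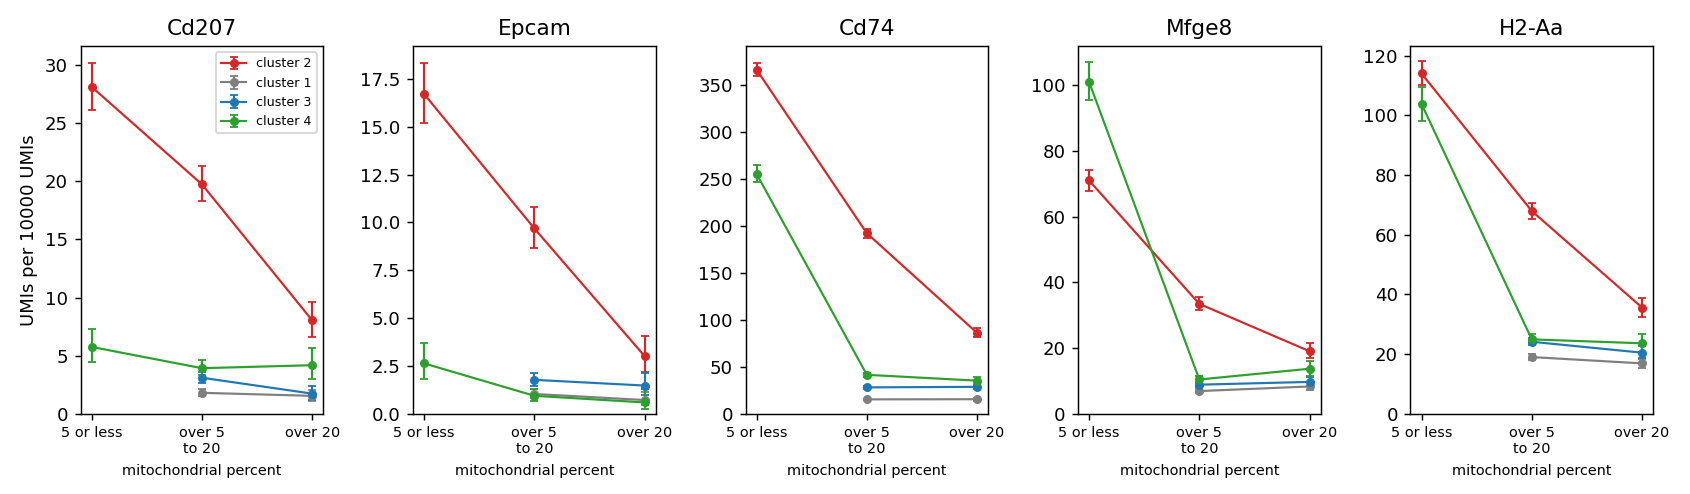
Levels of Cd207, Epcam, Cd74, Mfge8 and H2-Aa (y axes, UMIs per 10000 UMIs) by mitochondrial percent (x axis) in host cells with 500 or more genes. Points are sums over the cells of a cluster in a class, for classes with at least 5 cells, and bars are 95% Poisson intervals. All 5 genes fall with mitochondrial percent in cluster 2, and cluster 4 rests on 6 cells in the lowest class.

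Donor monocyte-derived LCs (mLCs) of the same series offer a second set of LCs, in a table that the authors normalised separately, so the values stand side by side with no comparison drawn. The cells that the authors call resident mLCs numbered 1651 in 4 donor libraries, between 51 and 1175 per library, with median depths of 7343 to 18027 UMIs and median mitochondrial shares of 1.32 to 2.20%. By their labels, 3 of these libraries came from mice given bone marrow (BMT) and 1 from mice that also received T cells. The paper describes its donor cells as sorted after transplantation with T cells. The split by T cells below therefore rests on the labels alone. Cd207 in resident mLCs was at 5.68 ± 4.67 (SD, n = 3) after BMT and 9.41 with T cells, beside 20.2 in host cluster 2. Epcam was at 24.95 ± 6.59 after BMT and 25.8 with T cells, beside 10.8. Cd74 was at 370 ± 111 and 519, beside 233. Mfge8 stood at 50.8 ± 11.1 and 50.3, beside 43.3, which lies inside the range of the donor libraries. H2-Ab1 was at 204 ± 25.8 and 210.5, beside 101. Ctss was at 21.9 ± 3.10 and 19.8, beside 6.63. Ptgs1 was at 4.996 ± 1.47 and 4.97, beside 4.78 and inside the donor range, whereas Hpgds was at 8.81 ± 0.369 and 9.27, beside 14.1. Of 38 genes set side by side, some of them chosen because they stood out in the host cluster, host cluster 2 lay above all donor libraries for 13, below all for 16 and within their range for 9. Library, treatment, depth and mitochondrial share differ with origin here, and their parts cannot be told apart.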

How the data were processed

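The authors processed reads with kallisto, bustools and Seurat against GRCm38, per the labels, and their paper reports DoubletFinder and Leiden clusters; versions are not given in the sources used here. The deposited expression values were natural logs of 1 plus UMIs per 10000 UMIs of the cell, and the deposited mitochondrial column was a percent. Undoing the log gave whole UMIs, within 0.001, for 100% of 1755429 host and 28329689 donor values. All deposited cells were kept, and no doublet was sought again. Pseudoalignment may split reads among close copies and overlapping genes.

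UMIs were summed by cluster, genes with a mean level of at least 0.5 over clusters 1 to 4 were compared, a cluster with fewer than 3 UMIs of a gene was set to 3, and 2-fold was called. No test was made, with 1 host library. The members and gene lists were chosen with earlier results of these data known. Named genes were the markers, the 10 genes most above and below each other cluster, the 5 highest and lowest per comparison, and up to 4 extreme members plus the most abundant of each list, of which not all are described. The procedure was tested on simulated data. Alternatives are described in the closing section, and 3 of them were chosen after seeing the data. The donor table listed 15155 genes, in which Malat1 is not found. Scripts ran under Python 3.11.15 with SciPy 1.17.1, using NumPy 2.4.6 for sums, matplotlib 3.10.9 for plots and pandas 2.3.3 for reading.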

Additional observations from a re-analysis of the deposited data

How the results depend on the processing

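With 1 host library, no replicate could be left out, and no paired analysis was possible because no result came from a test between groups. The order of values below is clusters 1, 3 and 4. Against these, a minimum level of 0.1 gave 1901, 1833 and 1772 higher and 3786, 3274 and 2023 lower genes, and no minimum gave 2589, 2434 and 2181 higher and 5277, 4340 and 2860 lower, since more genes were compared. A fold of 1.5 gave 1784, 1670 and 976 lower genes and, against cluster 4, 872 higher. The mean of the natural log values gave 233, 216 and 183 higher genes, the mean over cells gave 1374 and 942 lower genes against clusters 3 and 4, and centring on the median gene left 239 and 218 lower against clusters 1 and 3. The log2 ratio of Mfge8 fell to 0.91, 0.43 and 0.013 from the natural log values, under 2-fold in each, so its call is lost there. The ratio of Cd207 stayed at 2-fold or more under the alternatives run. It was 3.04, 2.43 and 1.63 in cells with 2000 to 8000 UMIs, 3.16, 2.31 and 1.03 as a mean over cells, 2.62, 1.48 and 1.14 from the natural log values, and 3.11, 2.44 and 1.45 without cells over 8000 UMIs. It was 2.57 to cluster 3 at 1000 UMIs and 2.43 to cluster 4 in cells within both limits of the study. The share of cells with Cd207 was 38.7% in cluster 2 and 7.20% and 11.6% in clusters 1 and 3 at 500 UMIs, 22.97% and 40.3% in clusters 1 and 3 at 2000 UMIs, and 33.3%, 58.4% and 54.4% in clusters 1, 3 and 4 with no thinning. The median number of genes in cluster 2 was 1694.5 with cells of 500 or more genes only. Of 78 list medians, 31 changed sign under at least one alternative, 27 of them under one other than centring, including LC identity against clusters 1 and 3 (as low as -1.09 and -1.36) and epithelial adhesion (as low as -0.52 and -1.03). Among the 42 medians of 1 or more in size, 3 did so: cell cycle against cluster 3 (-0.0093 at 1000 UMIs), C-type lectins against cluster 4 (-1.12 from natural log values), and melanocytes and fibroblasts, a single compared gene, against cluster 4 (1.14 in cells with 2000 to 8000 UMIs and 1.08 without cells over 8000). Their causes were not tested. Of the alternative counts of genes, 67 stayed within 1.5 times the main count and 23 did not. Depth limits every share and every level resting on few UMIs. The alternatives that leave out marked cells or cells over 8000 UMIs were chosen after seeing the data.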
